A study of Mus with 4 samples.

Results

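The receptors, coreceptors and ligands of vascular endothelial growth factor (VEGF) were followed in RNA-seq read counts of liver sinusoidal endothelial cells (LSECs), which form the perforated wall of the hepatic sinusoids. The group was fixed by name and identifier and holds 7 of the 54532 genes in the deposited table. It comprises the 3 receptor tyrosine kinases Kdr, Flt1 and Flt4, the 2 neuropilins Nrp1 and Nrp2, and the 2 ligands Vegfa and Vegfc. All mice, controls included, had been treated with carbon tetrachloride (CCl4), a hepatotoxin used to injure the liver. The control group (CTL) and the Pofut1 knockout group (P1KO) each contributed 2 libraries, and the series title places the loss of POFUT1 in the endothelium. The labels give no Cre line, strain, age or dose of CCl4. Tissue and cell type are labelled as liver and LSECs, although the protocol field speaks of RNA from heart ventricles.

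POFUT1 is the enzyme that O-fucosylates the EGF-like repeats of Notch receptors, and Notch signalling is known to regulate VEGF receptor genes in endothelium. KDR, also called VEGFR2, is the main signalling receptor for VEGFA. FLT1, or VEGFR1, binds VEGFA tightly but signals weakly, and its soluble form acts as a decoy. FLT4, or VEGFR3, is the receptor for VEGFC and is known from lymphatic vessels and from LSECs. Neuropilins have no kinase of their own: NRP1 enhances the binding of VEGFA to KDR, NRP2 pairs with FLT4 in the response to VEGFC, and both also bind class 3 semaphorins. In the liver, VEGFA from hepatocytes and stellate cells is known to maintain the fenestrated state of LSECs.

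In the RefSeq gene table for GRCm38.p6, the assembly that mm10 represents, Kdr lies on chromosome 5 from 75932827 to 75979072 and Flt1 on the same chromosome from 147561604 to 147726438. Flt4 lies on chromosome 11 from 49609679 to 49652739, Nrp1 on chromosome 8 from 128358591 to 128505476, and Nrp2 on chromosome 1 from 62703317 to 62818692. Vegfa lies on chromosome 17 from 46016993 to 46032377 and Vegfc on chromosome 8 from 54077532 to 54186454. The number of curated RefSeq transcripts was 10 for Vegfa, 6 for Nrp2, 3 for Nrp1, 2 each for Kdr and Flt1, and 1 each for Flt4 and Vegfc. The deposited values are 1 count per gene, so the splice forms of Vegfa and the membrane-bound and soluble forms of Flt1 are summed. The span of Vegfc overlaps that of the protein-coding gene model Gm33153 (54076070 to 54083743), and Kdr, Flt1, Nrp1 and Nrp2 overlap lncRNA genes. Nrp1 also overlaps the miRNA gene Mir1903. Without a stated strand setting, reads from the overlapping stretches cannot be told apart. Flt4 and Vegfa overlap 0 other genes in that table.

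The libraries held between 17464769 and 17918834 counts, and are called CTL1, CTL2, KO1 and KO3 after their columns. The control pair was the closer pair, since its biological coefficient of variation was 3.22%, and that of KO1 and KO3 was 12.1%. No label ties the libraries to individual mice. The p-values therefore reflect only the spread among these 4 libraries, which may be technical. The table's identifiers could not be paired with symbols, other than for the 7 genes named here. The level of Pofut1, markers of LSECs, of heart and of other liver cells, and the other genes of the VEGF pathway are therefore not analysed here, and neither the deletion nor the cell type was checked. In bulk RNA, fewer cells of a type and less RNA per cell cannot be told apart.

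In P1KO the mRNAs of Kdr, Flt4, Nrp2 and Vegfa were higher and that of Vegfc was lower. The rises lay between 1.19-fold for Flt4 and 1.44-fold for Nrp2, and the fall of Vegfc was to 0.564 of the control level. Flt1 and Nrp1 did not pass the test, which called a gene at an edgeR adjusted p below 0.05 over all genes tested. All 7 genes passed the filter on low counts. Thus 4 of the 7 were called higher and 1 lower, whereas 19.5% of the 15510 tested genes were called, 9.68% higher and 9.84% lower. Abundant genes are called more often, and all 7 genes were abundant. Among the 5735 tested genes at least as abundant as Vegfc, the least abundant of the 7 by CPM, 30.9% were called, 19.4% higher and 11.5% lower. This cut lies far below most of the 7, whose median level was 666 CPM. The share called among genes as abundant as most of the 7 was not computed, so 30.9% is not a matched background for them. The median log2 fold change was 0.25 over the 7 genes, -0.0077 over all tested genes and 0.037 over the 7755 more abundant of them. These calls rested on the closeness of the control pair: with CTL1 or CTL2 left out, or with both summed into 1 sample, 0 of the 7 genes passed in edgeR. In those fits, in that order, 0.832%, 0.774% and 0.980% of all tested genes passed, so calls became scarce throughout.

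**Figure D1:**
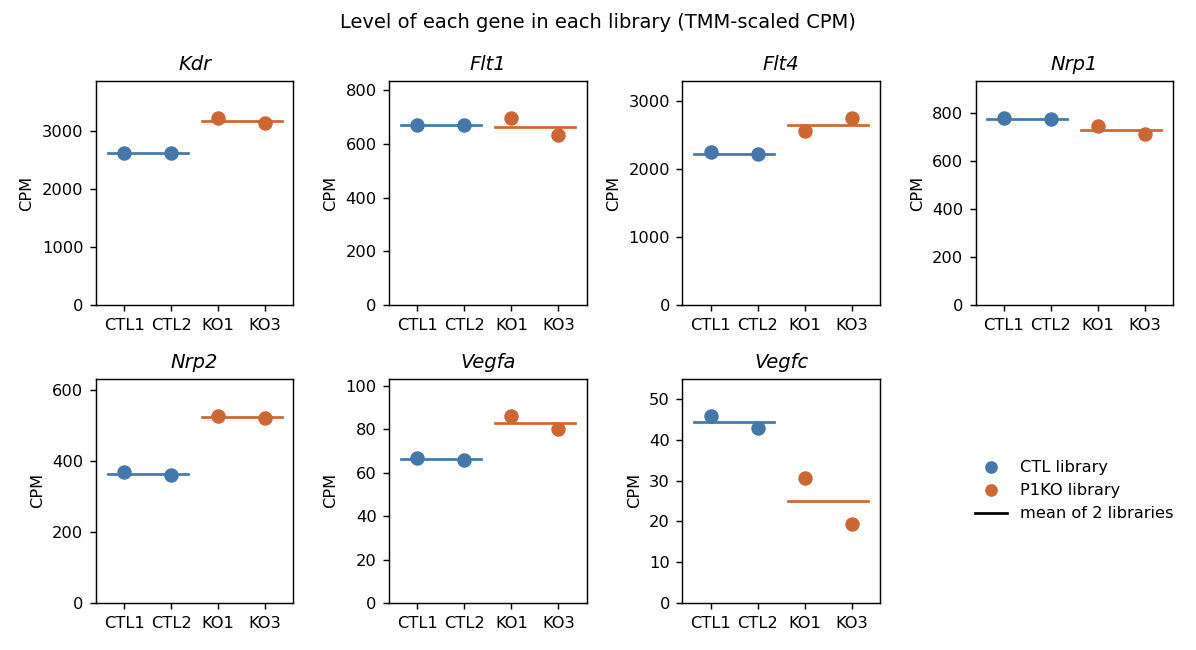
Level of each of the 7 genes in each library, in TMM-scaled CPM (vertical axes start at 0 and differ between genes). Points are libraries and lines are the means of 2 libraries. KO1 and KO3 lie above both controls for Kdr, Flt4, Nrp2 and Vegfa, below both for Nrp1 and Vegfc, and on either side of them for Flt1.

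Kdr (ENSMUSG00000062960), the principal VEGFA receptor, had 46142 (CTL1) and 46828 (CTL2) reads in the controls against 56653 (KO1) and 55925 (KO3) in the knockouts. Its level, in TMM-scaled CPM (reads relative to library size), was 2630 and 2620 in the controls and 3220 and 3140 in the knockouts. Both knockout libraries were therefore high, and the groups did not overlap. Groups did not overlap for 6 of the 7 genes, for 62.6% of all tested genes and for 69.5% of the 7755 more abundant of them. The means of Kdr were 2620 ± 4.32 CPM in CTL and 3180 ± 54.6 CPM in P1KO (SD, n = 2 libraries each). This is a rise of 21.2%, a log2 fold change of 0.28 ± 0.039 (SE) with a 95% interval from 0.19 to 0.37 and an edgeR adjusted p of 0.00327. KO3 differed from KO1 by -0.035 on the log2 scale, so the gap between the groups exceeded the gap within the knockout pair. Without CTL1 the log2 change was 0.27 and the edgeR adjusted p 0.201, and without CTL2 they were 0.27 and 0.21.

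Flt4, the VEGFC receptor, was also higher, with an estimate close to that of Kdr. This gene, ENSMUSG00000020357, had 39441 and 39650 reads in the controls, 45120 in KO1 and 48890 in KO3. In CPM these were 2250 and 2220 in the controls, 2560 in KO1 and 2750 in KO3. The groups did not overlap, and KO3 was the higher of the knockout libraries, by 0.10 on the log2 scale. The mean was 2230 ± 18.6 CPM in CTL and 2660 ± 129 CPM in P1KO (SD, n = 2 each), a rise of 18.9%. The log2 fold change was 0.25 ± 0.047 (SE), with a 95% interval from 0.14 to 0.36 and an edgeR adjusted p of 0.0103. Leaving out CTL1 raised the edgeR adjusted p to 0.257 and leaving out CTL2 raised it to 0.281, at log2 changes of 0.25 and 0.24.

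Flt1, the high-affinity receptor that limits VEGFA signalling, was the exception among the kinases. This gene, ENSMUSG00000029648, had 11746 and 11955 reads in the controls, 12207 in KO1 and 11251 in KO3. The level was 669 CPM in both controls, 694 CPM in KO1 and 632 CPM in KO3. The knockout libraries thus lay on opposite sides of the controls, and the groups overlapped. The log2 fold change was -0.014 ± 0.057 (SE) with an edgeR adjusted p of 0.897. Its 95% interval ran from -0.15 to 0.12, so that a rise as large as the estimates for Kdr and Flt4 lay outside it. As a fold this interval is 0.903 to 1.09. The direction depended on the library: Flt1 was at -0.082 without KO1 and at 0.052 without KO3. In both fits the spread came from the control pair alone.

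**Figure D2:**
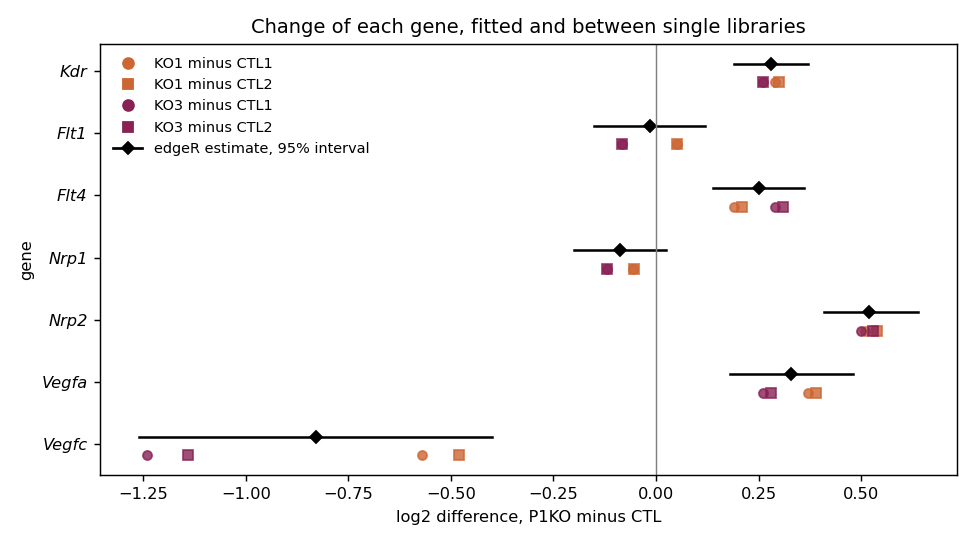
Log2 difference of P1KO minus CTL for each of the 7 genes. Black diamonds and lines are the edgeR estimate and its 95% interval over all 4 libraries, and coloured symbols are the differences between single libraries, 4 per gene. The estimates run from -0.83 for Vegfc to 0.52 for Nrp2, and the single-library differences of Vegfc fall into 2 sets, 1 for KO1 and 1 for KO3.

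Together the 3 receptor genes took 0.557% (CTL1) and 0.553% (CTL2) of all control reads, against 0.636% (KO1) and 0.655% (KO3) of the knockout reads. Flt1 made up a smaller part of these receptor reads in the knockouts. Its share was 12.1% in both controls, 10.7% in KO1 and 9.69% in KO3.

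Of the neuropilins, Nrp2 was called higher and Nrp1 was not called. Nrp2 (ENSMUSG00000025969), the coreceptor that pairs with FLT4, had 6462 (CTL1) and 6443 (CTL2) control reads against 9254 (KO1) and 9264 (KO3) knockout reads. The control levels were 368 and 361 CPM and the knockout levels 526 and 520 CPM. The knockout libraries were close to each other, at -0.015 on the log2 scale, and both lay far above the controls. Mean Nrp2 was 364 ± 5.16 CPM in CTL and 523 ± 3.79 CPM in P1KO (SD, n = 2 each), which is 43.6% more. The log2 fold change was 0.52 ± 0.049 (SE), with a 95% interval from 0.41 to 0.64 and an edgeR adjusted p of 0.000625, the lowest of the 7 genes. Of the 5735 genes at least as abundant as Vegfc, a set not matched to the level of Nrp2, 4.01% had a larger rise. Leaving out CTL1 or CTL2 raised the edgeR adjusted p to 0.082 or 0.0898, with log2 changes of 0.53 and 0.50.

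Nrp1 (ENSMUSG00000025810), the coreceptor of KDR, had 13637 and 13844 reads in the controls, 13147 in KO1 and 12689 in KO3. The level was 777 and 775 CPM in the controls, 747 CPM in KO1 and 713 CPM in KO3. Both knockouts were lower and the groups did not overlap, as for 62.6% of all tested genes. The change did not pass: the log2 fold change was -0.088 ± 0.048 (SE), with a 95% interval from -0.20 to 0.025 and an edgeR adjusted p of 0.246. Without KO1 the log2 change was -0.12, in a fit whose spread came from the control pair alone. Among the settings that kept all 4 libraries apart, Nrp1 passed only with cyclic loess scaling, at -0.15 with an edgeR adjusted p of 0.0475. Cyclic loess, which was chosen after the data were seen, removes trends with abundance. The intervals of Nrp1 and Nrp2 did not overlap in the fit to all 4 libraries.

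The ligands moved in opposite directions. Vegfa (ENSMUSG00000023951), the ligand of KDR and FLT1, had 1170 and 1175 reads in the controls, 1516 in KO1 and 1425 in KO3. The level stood at 66.6 and 65.8 CPM in the controls and 86.1 and 80.1 CPM in the knockouts. Both knockouts were high, with KO1 the higher of them. The mean was 66.2 ± 0.6 CPM in CTL and 83.1 ± 4.3 CPM in P1KO (SD, n = 2 each), a rise of 25.5%. On the log2 scale this was 0.33 ± 0.064 (SE). The 95% interval ran from 0.18 to 0.48 and the edgeR adjusted p was 0.0127. Leaving out CTL1 gave an edgeR adjusted p of 0.181 and leaving out CTL2 gave 0.194, with log2 changes of 0.33 and 0.31.

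Vegfc (ENSMUSG00000031520), the ligand of FLT4, showed the largest change of the 7 genes and the widest scatter. It had 805 and 768 reads in the controls, 541 in KO1 and 345 in KO3. The level was 45.8 and 43.0 CPM in the controls, 30.7 CPM in KO1 and 19.4 CPM in KO3. Both knockouts were low without overlap, but unequally so: against the control mean KO1 was at -0.53 and KO3 at -1.19 on the log2 scale. The exact Poisson 95% intervals of the reads were 496 to 589 in KO1 and 310 to 383 in KO3, so these libraries differed by more than counting error, which is all that the intervals cover. Of the 5735 genes at least as abundant, 1.45% had a larger gap between KO1 and KO3 than the -0.66 of Vegfc.

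Over both knockout libraries Vegfc fell from 44.4 ± 2.01 CPM to 25.1 ± 8.03 CPM (SD, n = 2 each). The log2 fold change was -0.83 ± 0.18 (SE), with a 95% interval from -1.26 to -0.40 and an edgeR adjusted p of 0.020. Its size depended on the library, since the log2 change was -0.53 without KO3 and -1.20 without KO1, both with calls (edgeR adjusted p of 6.89e-08 and 8.44e-31). In these 2 fits the spread came from the control pair alone. Without CTL1 the log2 change was -0.78 with an edgeR adjusted p of 0.225, and without CTL2 it was -0.88 with 0.195. Vegfc also missed the threshold when no filter on low counts was applied, with an edgeR adjusted p of 0.0862. Among the 5735 genes at least as abundant, 2.41% fell further.

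Ratios of reads within a library need no scaling between libraries and show unequal change between genes. There were 5 ratios, chosen after the counts had been seen. The ratio of Kdr to Flt1 reads was 3.93 and 3.92 in the controls, 4.64 in KO1 and 4.97 in KO3. That of Flt4 to Flt1 was 3.36 and 3.32 in the controls, 3.70 in KO1 and 4.35 in KO3. Both ratios were higher in each knockout than in each control, so that Kdr and Flt4 reads were more numerous relative to Flt1 reads whatever the library scaling. The ratio of Kdr to Flt4 showed no such order, with 1.17 and 1.18 in the controls, 1.26 in KO1 and 1.14 in KO3.

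The ratio of Nrp2 to Nrp1 reads was 0.474 (CTL1) and 0.465 (CTL2) in the controls but 0.704 (KO1) and 0.730 (KO3) in the knockouts. The knockout mean of 0.717 ± 0.0185 was 1.53 times the control mean of 0.470 ± 0.00598 (SD, n = 2 each). The ratio of Vegfa to Vegfc reads was 1.45 and 1.53 in the controls, 2.80 in KO1 and 4.13 in KO3. Its knockout mean was 2.32 times the control mean, with KO3 well above KO1. In an exact two-sided permutation test of 2 against 2 libraries, the 4 ratios whose groups did not overlap each gave p = 0.333, the smallest p this design allows (adjusted p = 0.416 over 5 ratios), and Kdr to Flt4 gave p = 1. No ratio can therefore pass a threshold of 0.05 by this test. The ratios compare reads, not transcripts per cell, since transcript lengths were not used.

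**Figure D3:**
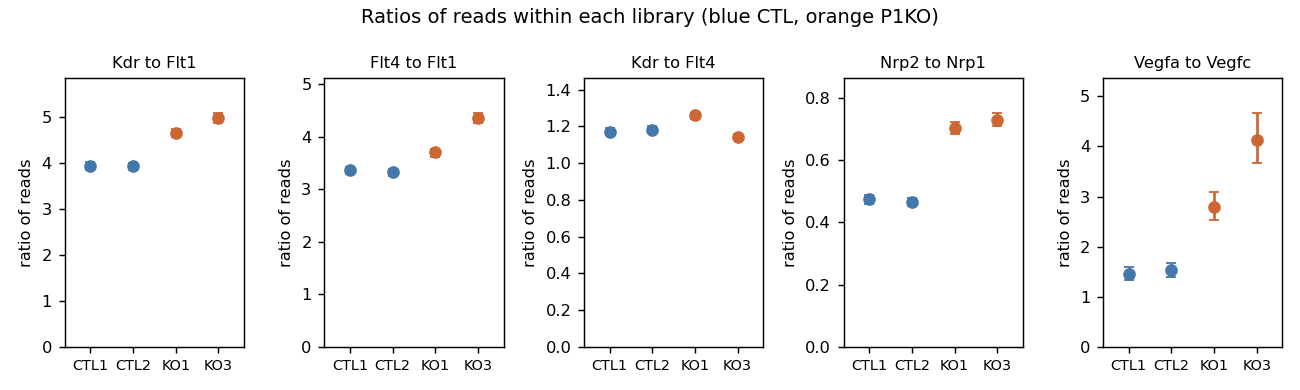
Ratio of reads of 2 genes within each library, for 5 pairs of genes. Error bars are exact binomial 95% intervals and cover counting error only. Nrp2 to Nrp1 was at most 0.474 in the controls and at least 0.704 in the knockouts, while Kdr to Flt4 lay between 1.14 and 1.26 in all 4 libraries.

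The changes of the 7 genes were also set among those of all tested genes. A larger absolute log2 fold change than that of Kdr was found for 41.2% of the 15510 tested genes. The corresponding share was 44.9% for Flt4, 35.3% for Vegfa, 21.0% for Nrp2 and 10.3% for Vegfc, and 96% for Flt1 and 76.4% for Nrp1, which were not called. These shares include scarce genes, whose estimates scatter most. Among the 5735 genes at least as abundant as Vegfc, the shares were 25.2% for Kdr, 29.2% for Flt4, 19.7% for Vegfa, 9.14% for Nrp2, 3.75% for Vegfc, 94.5% for Flt1 and 68.5% for Nrp1. That cut lies far below most of the 7 genes, so these shares are not matched for abundance either.

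**Figure D4:**
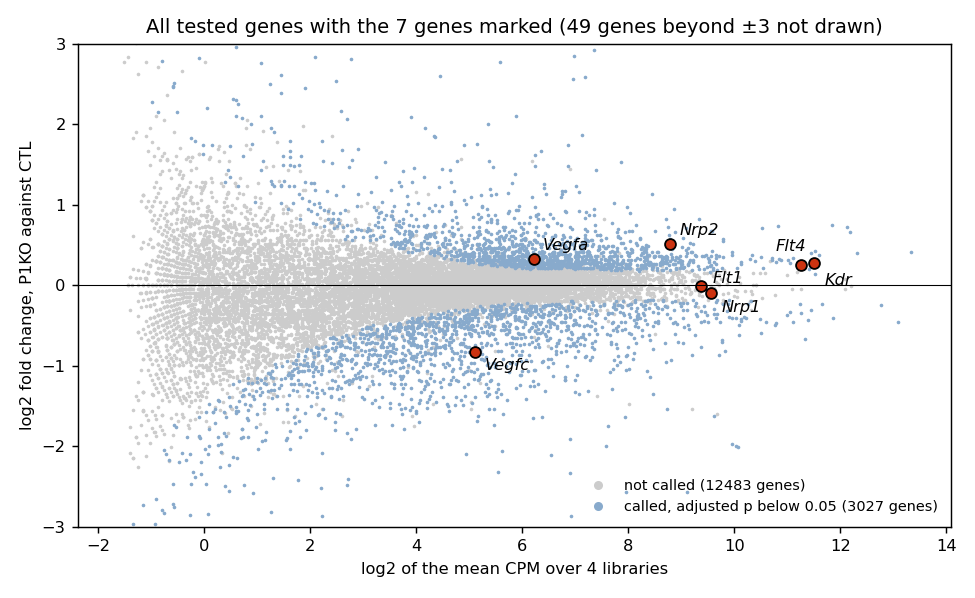
Log2 fold change of P1KO against CTL for the tested genes, against the log2 of their mean CPM over 4 libraries. Light blue points were called at an edgeR adjusted p below 0.05, grey points were not, and red points are the 7 genes. Beyond 3 log2 units in either direction, 49 genes are not drawn. Flt1 and Nrp1 lie in the band of genes that were not called, and Nrp2 and Vegfc lie farthest from 0 among the 7.

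Likeness of pattern was measured as the Euclidean distance between log2 CPM profiles over the 4 libraries, each centred on its mean. The rule for naming similar genes needed a symbol, so it could be applied among the 7 genes only. Kdr was closest to Vegfa, at a distance of 0.071, and then to Flt4, at 0.10. Of the 7548 other genes with at least 20 CPM, 272 were closer to Kdr than Vegfa was, and 606 were closer than Flt4. Flt1 and Nrp1 were each other's nearest among the 7, at 0.087, but 637 genes were closer to Flt1 and 630 closer to Nrp1. Nrp2 was nearest to Vegfa, at 0.21, with 458 genes closer to Nrp2. Vegfc stood apart from the others, with Nrp1 its nearest at 0.88 and 1822 genes closer to Vegfc. With 4 libraries such profiles hold little beyond the difference between the groups and the order of KO1 and KO3, so the distances are descriptions only.

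The set of calls depended on which libraries entered the fit. The 5 calls were made in every setting with all 4 libraries kept apart, except that Vegfc did not pass without a filter on low counts. With both controls summed into 1 sample, 0 of the 7 genes passed (edgeR; 4 of the 7 had an unadjusted p below 0.05, as had 18.8% of all tested genes). Without CTL1, 0 of the 7 passed as well, with 5 at an unadjusted p below 0.05, against 18.8% of all tested genes. Without CTL2, 0 passed, with 4 at an unadjusted p below 0.05, against 19% of all tested genes. Without KO1 all 7 genes passed, and without KO3 the same number as in the full fit, 5, against 34.8% and 33.6% of all tested genes. In total, 107 genes passed both with all 4 libraries and whichever 1 library was left out, and 0 of the 7 genes were among them. For most of the 7 genes, estimates moved less than calls did. Over the 13 alternative settings the log2 change ranged from 0.23 to 0.29 for Kdr, from 0.20 to 0.30 for Flt4, from 0.46 to 0.53 for Nrp2 and from 0.27 to 0.38 for Vegfa. It ranged from -0.15 to -0.055 for Nrp1 and, most widely, from -1.20 to -0.53 for Vegfc. For Flt1 the sign differed between settings, with a range from -0.082 to 0.052.

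**Figure D5:**
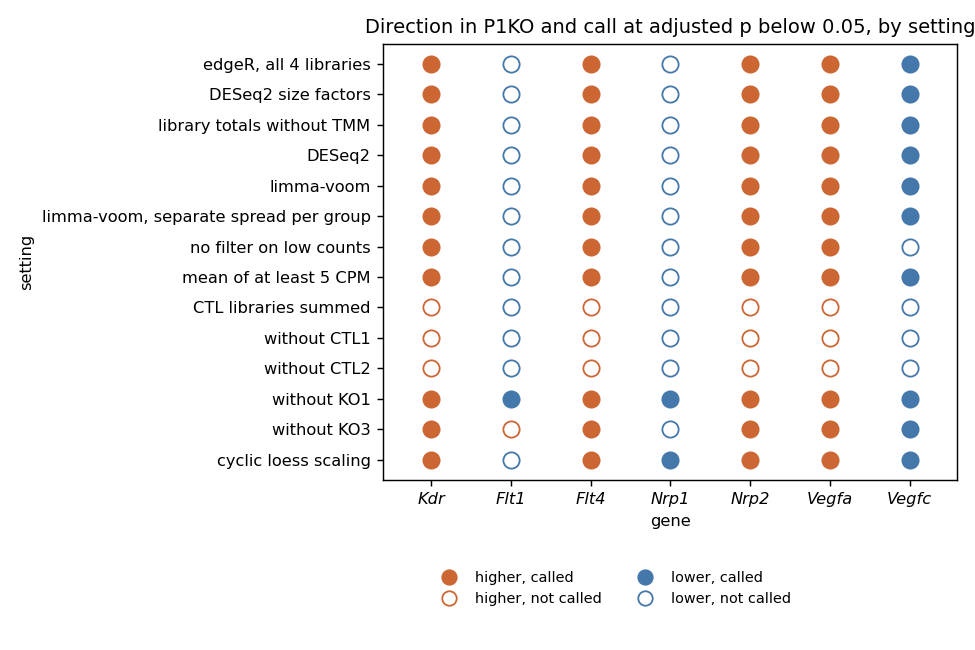
Direction and call of each of the 7 genes in P1KO under each setting. Orange is higher and blue is lower in P1KO, and filled circles passed an adjusted p below 0.05. The 3 rows in which all circles are open are those with the controls summed or with 1 control left out, and Flt1 is the gene whose direction differs between settings.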

How the data were processed

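The authors deposited 1 table of raw read counts per Ensembl gene, with 54532 identifiers and 4 columns, all of which were used (0 left out). The tools named in the submitters' processing notes are featureCounts 1.5.0-p3, HISAT2 2.0.5, fastp and CASAVA, and the build is mm10. Neither the annotation release nor the strand setting is stated there. The columns CTL1, CTL2 and KO1 each correspond to 1 titled sample. The titles hold no knockout 3, so KO3 was assigned to P1KO by its name alone.

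Genes were filtered with filterByExpr (15510 kept), scaled with TMM and tested with edgeR 4.0.16 in R 4.3.3 (quasi-likelihood F-test, no covariate, Benjamini-Hochberg over all tested genes, call below 0.05). Standard errors are the log2 fold change divided by the square root of F. Log2 CPM used a prior count of 2. DESeq2 1.42.0 and limma 3.58.1 were alternatives. The script was tested on simulated counts in which both groups had the same spread, unlike the 2 groups of these data. Symbols of the 7 genes came with the definition of the group, and the RefSeq table (49997 genes) held 0 Ensembl identifiers. The rule for named genes took all 7 genes, called genes of pathway lists, and the genes nearest in profile. The lists and cell type markers could not be read without symbols. The genes, lists and rules were chosen with earlier results of these data known.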

Additional observations from a re-analysis of the deposited data

How the results depend on the processing

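Over 13 alternative settings, Kdr, Flt4, Nrp2, Vegfa, Vegfc and Nrp1 kept their direction, and Flt1 did in 12. Without a filter on low counts, 1633 of 26155 tested genes (6.24%) were called, 810 higher and 823 lower. Vegfc then missed the threshold at -0.83, which left 0 of the 7 genes lower. With the controls summed, 152 genes were called, 70 higher and 82 lower, and 0 of the 7 genes, with log2 changes of 0.27 for Kdr, 0.24 for Flt4, 0.52 for Nrp2, 0.32 for Vegfa and -0.83 for Vegfc. Cyclic loess, added after seeing the data, called Nrp1 at -0.15 and so 2 of the 7 genes lower, with 17.2% of all tested genes called and 9.21% called lower. Leaving out 1 library at a time gave 120 to 5391 calls, 54 to 2675 higher and 66 to 2716 lower. Of the 7 genes, 0 to 7 were then called, 0 to 4 higher and 0 to 3 lower. The log2 changes ran from 0.26 to 0.29 for Kdr, -0.082 to 0.052 for Flt1, 0.20 to 0.30 for Flt4, -0.12 to -0.055 for Nrp1, 0.50 to 0.53 for Nrp2, 0.27 to 0.38 for Vegfa and -1.20 to -0.53 for Vegfc. A lone library was assumed to vary like the other group, so the spread came from the other pair alone. DESeq2 size factors, library totals, DESeq2, both limma-voom fits and a 5 CPM filter changed no call among the 7 genes. No paired analysis was possible because KO3 carries a replicate number that the sample titles lack. Scaling to pan-endothelial genes and counts in pathway lists were not run for lack of symbols.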
